A study of Mus musculus with 31 samples.

Results

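The mouse mitochondrial genome carries 37 genes, and their RNA was followed in the basolateral amygdala (BLA) of 31 mice. The members were taken as every gene whose GENCODE symbol on the GRCm38 build starts with mt-, which gave 37 of the 48709 genes in the count tables. They are 13 mRNAs, 2 rRNAs and 22 tRNAs, and all 37 passed the filter on low counts, as did 17428 genes in all. The mice were C57BL/6N animals that either carried human CYFIP1 on a bacterial artificial chromosome (CYFIP1 OE, n = 15) or were wild type (WT, n = 16). CYFIP1 is a partner of the translational repressor FMRP and of the WAVE complex, which controls actin. Each CYFIP1 OE mouse came from 1 of the lines labelled 1 and 3, and each line goes back to a single founder. Line 1 gave 8 WT and 7 CYFIP1 OE mice, and line 3 gave 8 of each. There were 16 females and 15 males, aged 58 to 61 days in the WT group and 58 to 77 days in the CYFIP1 OE group, and the 4 mice aged 77 days were all CYFIP1 OE mice of line 1. The BLA of both sides was punched from a brain slice, pooled and sequenced with QuantSeq, a method that primes on poly(A) and reads the 3′ end of RNA.

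Mitochondrial DNA is transcribed from both strands into long precursors in which tRNAs lie between most of the mRNAs and rRNAs. Excision of the tRNAs releases the other RNAs, and a poly(A) polymerase then adds short tails to most mRNAs and to the rRNAs, which also completes the stop codon of some mRNAs. The mRNAs encode subunits of complexes I, III and IV of the respiratory chain and of ATP synthase, the rRNAs build the mitochondrial ribosome, and brain tissue depends on this system for most of its ATP.

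Total counts ranged from 5286925 to 8685521 per mouse. The nuclear entries AY036118, Akap5 and Elp6 had the most counts and together took 23.1% to 45.4% of a mouse's counts, with a mean of 33.8% ± 4.24 (SD, n = 15) in CYFIP1 OE and 29.9% ± 3.89 (SD, n = 16) in WT. Mouse Cyfip1, whose counts need not hold reads of the human transgene, averaged 33.5 ± 4.48 CPM (counts scaled to the library size with TMM normalization; SD, n = 16) in WT and 33.0 ± 3.66 CPM (SD, n = 15) in CYFIP1 OE mice. Its log2 fold change was -0.02 ± 0.08 (SE, adjusted p = 0.999, edgeR's quasi-likelihood test), so the labels were not checked by it. Of the BLA markers, Slc17a7 had a median of 196 CPM but a lowest value of 3.01 CPM, and Neurod6 went from 0.347 CPM to a median of 28.0 CPM. Striatal markers summed to between 234 and 5577 CPM and choroid plexus markers to between 16.4 and 8314 CPM, so marker levels differed widely among the punches. CYFIP1 OE replicate 1, a male of line 3, stood apart, with a connectivity Z-score (a measure of how well a mouse correlates with all the others) of -4.59 against -1.45 for the next lowest mouse. It also had the lowest TMM factor, 0.747. The study's methods removed samples with a Z-score under -2, and by the score computed here this mouse falls under that limit. The main fits here keep the mouse. Counts of members in the comparisons below are given with and without it.

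The 3′ ends matter here, because QuantSeq reads start there and because nuclear genes hold near-identical copies of some of them. The last 30 bases of 3 mitochondrial mRNAs and of 2 nuclear copies are shown 5′ to 3′, from GENCODE transcripts of GRCm38, with the annotated bases of the stop codon of the mitochondrial genes in capitals.
mt-Co1: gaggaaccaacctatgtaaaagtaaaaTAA
Gm29216: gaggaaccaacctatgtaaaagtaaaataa
mt-Nd3: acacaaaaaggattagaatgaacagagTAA
Gm28438: tgaacacaaaaaggattagaatgaacagag
mt-Cytb: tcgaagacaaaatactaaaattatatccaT
mt-Co1 (cytochrome c oxidase subunit 1) lies at chrM:5328-6872, plus strand, and Gm29216 lies at chr1:24615706-24616197, minus strand. A stretch of 483 bases of Gm29216 matched the 3′ end of mt-Co1 with a single difference, A1066T (position from the first base of mt-Co1, the mitochondrial base first), so the last 479 bases were identical. Gm28438 matched the first 345 of the 348 bases of mt-Nd3 (NADH dehydrogenase subunit 3) with the single difference T3C, and its annotated end lies before the stop codon. Gm10222 was identical to mt-Nd4l over 294 bases and Gm28437 to mt-Co3 over 783 bases, while Gm13339 differed from mt-Nd2 at 17 of 510 bases. mt-Cytb, like mt-Co3 and mt-Nd4, is annotated with only the first T of its stop codon, and 10 of the 13 mRNAs have a complete one. A run of at least 6 A bases, where an oligo(dT) primer could also bind, was present in 5 of 13 mRNAs, 1 of 2 rRNAs and 2 of 22 tRNAs.

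Together the 37 genes took between 6.45% and 10.9% of all counts of a mouse, with a median of 7.93%. The mRNAs accounted for 5.28% ± 0.898 of all counts (SD, n = 31), the rRNAs for 2.50% ± 0.301 and the tRNAs for 0.183% ± 0.092. A few genes dominated. mt-Rnr2, the large rRNA, took a mean of 24.6% of the mitochondrial counts, mt-Co3 15.9% and mt-Cytb 10.3%, so these 3 genes held 50.7% and the 6 highest genes 74.8%. The order was stable at the top: mt-Rnr2 ranked first in 30 mice and mt-Co3 in 1, and mt-Cytb had rank 3 in 29 of 31. These shares and ranks leave out the reads placed on nuclear copies. With the copies added, mt-Co1 took rank 3 by mean, at 11493 CPM, and mt-Cytb rank 4, at 8207 CPM.

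**Figure D1:**
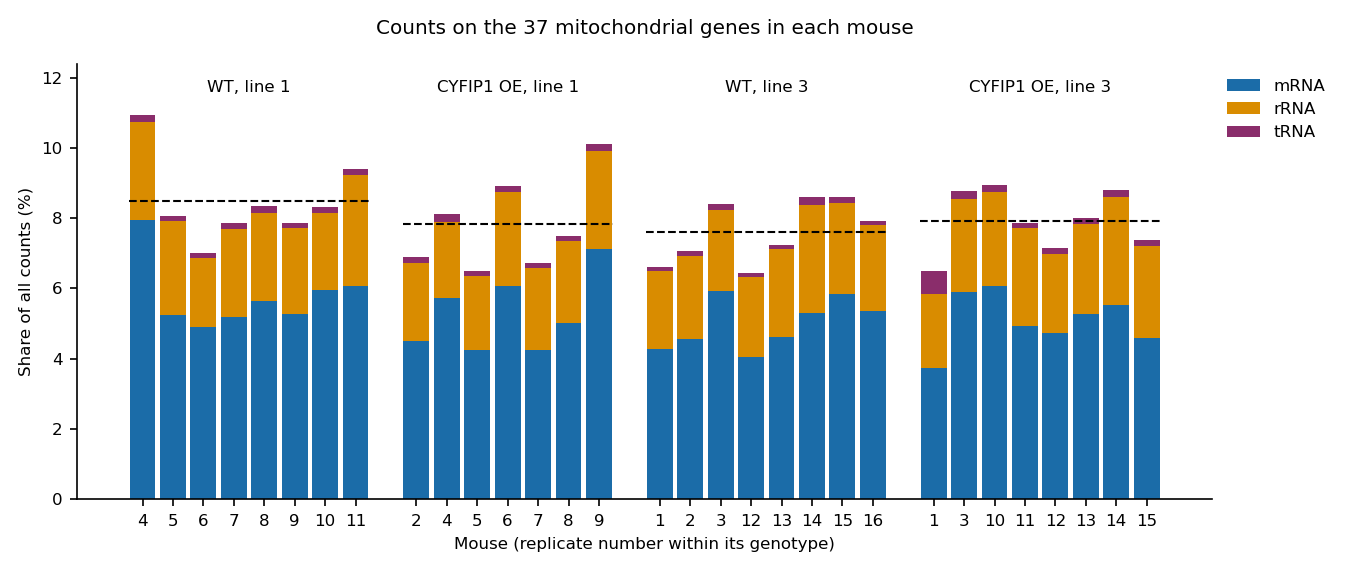
Stacked bars give, for each of the 31 mice, the share of all counts (percent, y axis) on the 13 mRNAs, 2 rRNAs and 22 tRNAs, with mice grouped by line and genotype and the dashed lines marking the mean of each group. Totals lie between 6.45% and 10.9% and the groups overlap, and the tRNA part is large only in CYFIP1 OE replicate 1.

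The levels of the members are given in CPM as the lowest, median and highest mouse, and where genes are compared with each other, as CPM per kb of transcript. The rRNAs had much of the signal. mt-Rnr2 ranged from 15437 CPM through a median of 19033 to 29352 CPM, and mt-Rnr1, the small rRNA, from 4049 through 5424 to 8535 CPM. Both were highest in WT replicate 14, and per kb their means were 12411 and 5816 CPM per kb.

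Of complex IV (cytochrome c oxidase), which passes electrons to oxygen, mt-Co3 ranged from 8096 through 12335 to 18125 CPM and was the highest of all 37 genes per kb, with a mean of 16247 CPM per kb. mt-Co2 ranged from 3112 through 6555 to 9747 CPM. The lowest of these values was CYFIP1 OE replicate 1, and the next lowest mouse was at 4878 CPM. mt-Co1 ranged from 1153 through 1706 to 2367 CPM, and with 1108 CPM per kb it ranked 18th per kb, below the other subunits of the complex, a level that leaves out the reads placed on its nuclear copies. mt-Cytb, the only complex III subunit of this genome, ranged from 4759 through 8117 to 11756 CPM, again lowest in CYFIP1 OE replicate 1.

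The ATP synthase subunits mt-Atp8 and mt-Atp6 are read from a shared mRNA with 43 overlapping bases. mt-Atp6, at its 3′ side, ranged from 4830 through 6802 to 10441 CPM, and mt-Atp8 from 103 through 166 to 273 CPM. Per kb the means were 9966 and 802 CPM per kb, although both lie on 1 RNA. The pair mt-Nd4l and mt-Nd4, which share 7 bases, had the same order. mt-Nd4 had a mean of 4396 CPM per kb and mt-Nd4l of 594 CPM per kb.

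Complex I (NADH dehydrogenase) has 7 subunits on this genome. mt-Nd4 ranged from 3416 through 5855 to 11034 CPM, mt-Nd1 from 3822 through 5158 to 7340 CPM and mt-Nd2 from 1916 through 3209 to 5003 CPM. mt-Nd5 and mt-Nd6 overlap by 14 bases on opposite strands, and mt-Nd6 is the only mRNA on the minus strand. mt-Nd5 ranged from 556 through 857 to 1292 CPM and mt-Nd6 from 400 through 817 to 1797 CPM. The lowest were mt-Nd3, from 270 through 509 to 1354 CPM, and mt-Nd4l, from 33.3 through 159 to 388 CPM. Their coefficients of variation over the mice were 43.7% and 47.9%, against a median of 20.96% over the 13 mRNAs.

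The 22 tRNAs had mean levels between 5.12 and 524 CPM with a median of 51.7 CPM, and coefficients of variation with a median of 64.6%. Those with the highest means, mt-Ts1 (524 CPM), mt-Ta (358 CPM), mt-Te (139 CPM) and mt-Tq (111 CPM), all lie on the minus strand, which holds 8 of the 22 tRNA genes. mt-Ts1, a serine tRNA, ranged from 244 through 465.6 to 2309 CPM, mt-Ta (alanine) from 163 through 290 to 2024 CPM, mt-Te (glutamate) from 70.6 through 122 to 635 CPM and mt-Tq (glutamine) from 58.8 through 94.8 to 501 CPM. Between medians of 44.2 and 85.7 CPM lay 8 tRNAs. They were mt-Tm (methionine) with a median of 85.7 CPM, mt-Tn (asparagine) with 82.7 CPM, mt-Tl1 (leucine) with 61.2 CPM, mt-Tw (tryptophan) with 59.1 CPM, mt-Tg (glycine) with 57.3 CPM, mt-Tv (valine) with 49.7 CPM, mt-Tc (cysteine) with 49.2 CPM and mt-Ti (isoleucine) with 44.2 CPM. The other 10 had lower medians, with mt-Tp (proline) at 36.6 CPM, mt-Th (histidine) at 27.7 CPM, mt-Tt (threonine) at 20.4 CPM, mt-Tk (lysine) and mt-Tf (phenylalanine) at 17.3 CPM each, mt-Tl2 (leucine) at 15.8 CPM, mt-Ty (tyrosine) at 13.2 CPM, mt-Tr (arginine) at 11.61 CPM, mt-Td (aspartate) at 9.53 CPM and mt-Ts2 (serine) at 3.69 CPM. Every one of the 22 was highest in CYFIP1 OE replicate 1. mt-Ts1 overlaps the end of mt-Co1 by 3 bases on the other strand. QuantSeq keeps the strand, but whether counting used it is not stated in the sources used here, so reads of these tRNAs and of precursors on the opposite strand cannot be told apart.

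**Figure D2:**
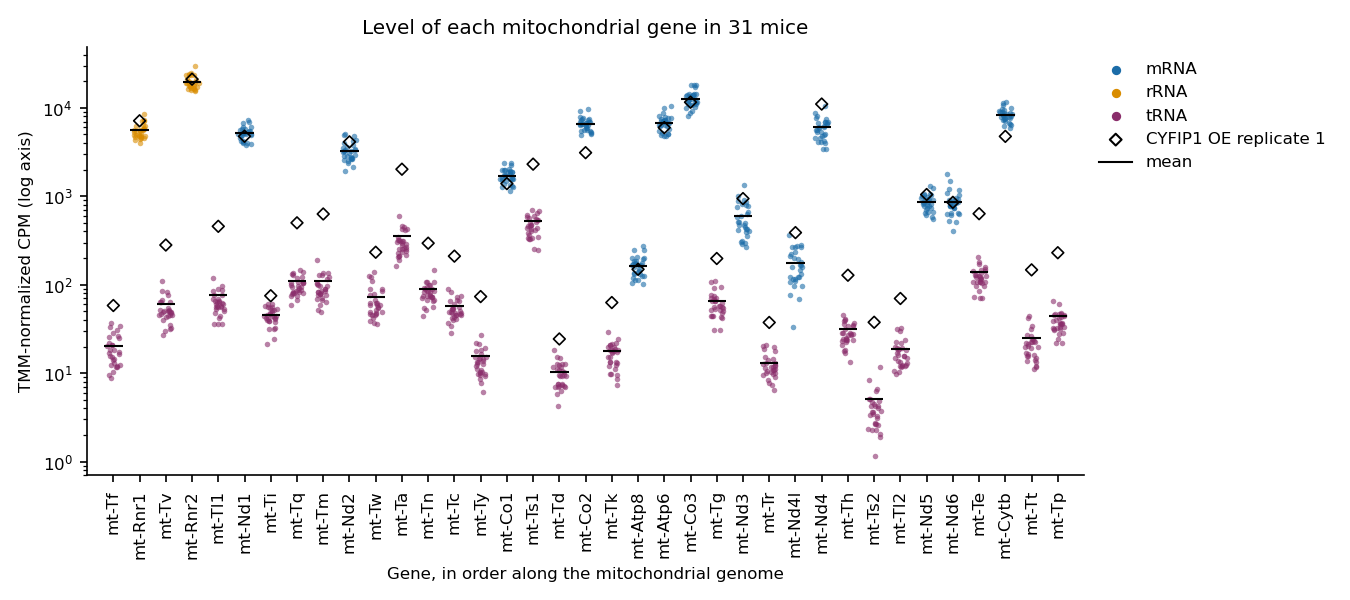
Points are the 31 mice, with TMM-normalized CPM on a log y axis and the genes along the x axis in genome order, black bars are means, and open diamonds mark CYFIP1 OE replicate 1. mt-Rnr2 lies highest, most tRNAs lie below the mRNAs, and the diamond is the highest point for all 22 tRNAs.

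CYFIP1 OE replicate 1 had a different mitochondrial profile from the other 30 mice. Its tRNAs made up 10.01% of the mitochondrial counts, and those of the other mice between 1.56% and 2.78%. All 22 tRNAs were above every other mouse, at 1.70 to 10.3 times the median of the others. For example, mt-Ta reached 2024 CPM against at most 596 CPM elsewhere, and mt-Ts1 reached 2309 CPM against at most 709 CPM. mt-Nd4 and mt-Nd4l were also above every other mouse, mt-Co2 and mt-Cytb were below every other mouse, and the other 9 mRNAs and both rRNAs lay within the range of the rest.

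Nuclear copies took a large part of the reads of some members. In all, 11 nuclear genes matched a mitochondrial gene over at least 100 bases at 95% identity or more, and 9 of them had a mean of at least 10 counts. They held 7.13 to 19.9 counts per 100 mitochondrial counts. Of the counts of mt-Co1 joined with its copies, the copies held 78.1% to 89.1%, nearly all of it on Gm29216. For mt-Nd3 the share on Gm28438 ranged from 3.28% to 86.9%, for mt-Nd4l the share on Gm10222 from 5.61% to 81.1%, and for mt-Nd2 the share on Gm13339 from 0.0200% to 34.7%. The share on Gm28437 stayed at or below 4.52% of the joined mt-Co3 counts. The division between such sequences is an estimate by the counting tool, so the separate levels of mt-Co1, mt-Nd3, mt-Nd4l and mt-Nd2 are uncertain.

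With the copies added, mt-Co1 went from 1711 ± 318 to 11493 ± 1999 CPM (mean ± SD, n = 31) and took rank 3 in CPM, after mt-Rnr2 and mt-Co3. The coefficient of variation of mt-Nd3 went from 43.7% to 26.2% and that of mt-Nd4l from 47.9% to 25.8%. That of mt-Nd2 was 24.1% before and 24.2% after.

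**Figure D3:**
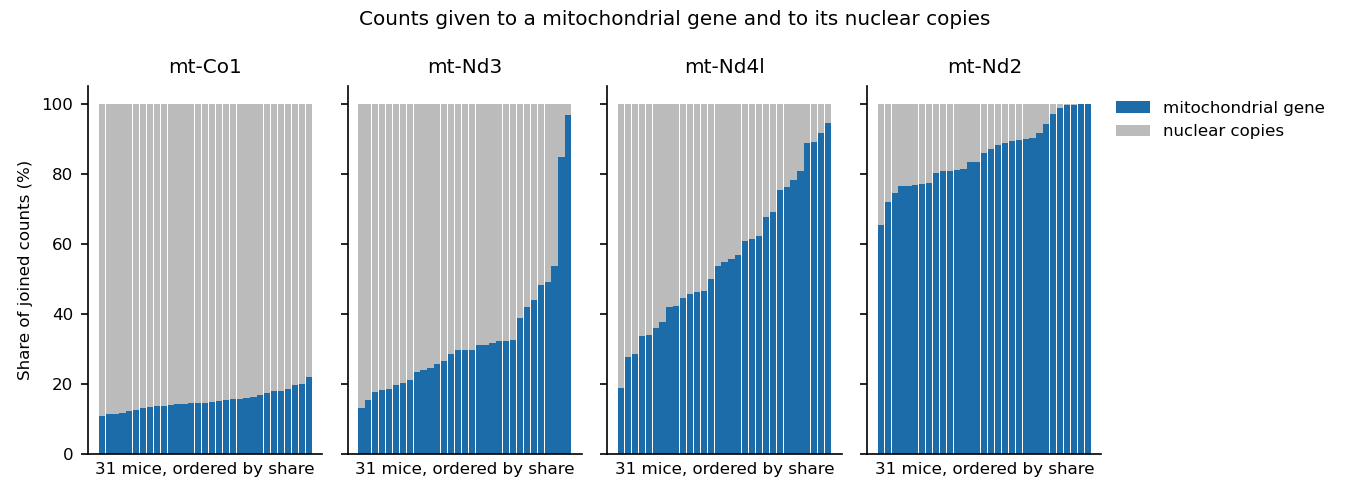
For 4 mRNAs, each bar is 1 of the 31 mice and splits the joined counts (percent, y axis) into those on the mitochondrial gene and those on its nuclear copies. The copies of mt-Co1 hold 78.1% to 89.1% in every mouse, while the share for mt-Nd3 runs from 3.28% to 86.9%.

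The first comparison asked whether overexpression of CYFIP1 went with a change in mitochondrial RNA. The share of counts on the 37 genes was 7.88% ± 1.07 (SD, n = 15) in CYFIP1 OE and 8.04% ± 1.11 (SD, n = 16) in WT mice. The difference of -0.166 percentage points was -0.152 of the pooled SD, and the ranges overlapped, at 6.48% to 10.1% and 6.45% to 10.9%. Without CYFIP1 OE replicate 1 the difference was -0.0664 points, without the mice aged 77 days -0.0533 points and within the name groups (mice with the same title prefix) that held both genotypes -0.00342 points. It became 0.417 points in the other direction, 11.9% against 11.5%, when the 3 highest nuclear entries were left out of the total. In bulk tissue a lower number of cells rich in mitochondria and less mitochondrial RNA per cell cannot be told apart.

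Gene by gene, none of the 37 genes was called by genotype at an adjusted p under 0.05 (edgeR's quasi-likelihood test), which was also true of all 17428 genes (percent called 0), and DESeq2 called none of the members. At an unadjusted p under 0.05 there were 17, all of them tRNAs that were higher in CYFIP1 OE mice, where 4.3% of all genes passed that limit and 2.27% passed it as higher. DESeq2 put 15 of the 33 members to which it gave a p under that limit, and 4.68% of all genes. None had a p under 0.005, and 0.293% of all genes did. The median log2 fold change was 0.41 over the 37 genes, 0.48 over the 22 tRNAs, 0.08 over the 13 mRNAs and 0.11 over the rRNAs, beside -0.01 over all genes tested. The largest value was that of mt-Ts2, a serine tRNA with few counts, at 0.76. mt-Tg, the tRNA for glycine and the member with the smallest p, ranged from 30.6 through a median of 51.8 to 111 CPM in WT and from 44.3 through 66.1 to 198 CPM in CYFIP1 OE mice. Its log2 fold change was 0.48 ± 0.18 (SE, p = 0.0101, adjusted p = 0.999, edgeR), and 13 of 15 CYFIP1 OE mice lay above the WT mean. mt-Ta, the tRNA for alanine, ranged from 163 through 245 to 596 CPM in WT and from 205 through 320 to 2024 CPM in CYFIP1 OE mice. Its log2 fold change was 0.61 ± 0.24 (SE, adjusted p = 0.999, edgeR), and 0.27 ± 0.14 (SE, p = 0.0647, edgeR) without CYFIP1 OE replicate 1. In both cases the groups overlapped and the top value was CYFIP1 OE replicate 1. Without that mouse, mt-Tg (0.30 ± 0.13, SE, p = 0.0321, adjusted p = 0.999, edgeR) and mt-Tw, the tRNA for tryptophan (0.35 ± 0.17, SE, p = 0.0447, edgeR), were the 2 of 37 genes with a p under 0.05, where 3.72% of all genes had one. The median log2 fold change was 0.15, and 35 of 37 genes were higher in CYFIP1 OE mice. The members vary together over the mice, so such a count does not hold 37 separate observations. The share of all genes that were higher, at any p, is not given here. Both limits also hold for the counts by direction below.

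The mRNAs and rRNAs had smaller fold changes by genotype than most tRNAs. Their log2 fold changes lay between -0.04 (mt-Co2) and 0.29 (mt-Nd4l), with no p under 0.05. mt-Co3 ranged from 8800 through 11754 to 18122 CPM in WT and from 8096 through 13325 to 18125 CPM in CYFIP1 OE mice, a log2 fold change of 0.13 ± 0.10 (SE, p = 0.191, edgeR). mt-Cytb ranged from 5847 through 8451 to 11462 CPM in WT and from 4759 through 7770 to 11756 CPM in CYFIP1 OE mice, a log2 fold change of -0.03 ± 0.10 (SE, p = 0.789, edgeR). For mt-Co1, mt-Nd2 and mt-Nd3 the sign depended on the nuclear copies. Their log2 fold changes were 0.11, 0.03 and 0.20 alone and -0.06, -0.02 and -0.06 with the copies added, all smaller than 2 SEs. With 5 surrogate variables in the model, the 37 genes split into 22 higher and 15 lower, and the median log2 fold change was 0.04. With name group as a block, which compares mice of the same title prefix, 19 members passed an unadjusted 0.05, as did 5.5% of all genes, and 7 tRNAs had one under 0.005, against 0.625% of all genes. The smallest was again that of mt-Tg, at 0.81 ± 0.22 (SE, p = 0.00109, adjusted p = 0.725, edgeR). In line 1 only X429.A, with 1 mouse of each genotype, holds both genotypes, so the fit with the block rests mainly on line 3. CYFIP1 OE replicate 1 is the only CYFIP1 OE mouse of its name group. Without it, mt-Tg was the only member with a p under 0.05 in this fit, at 0.48 ± 0.21 (SE, p = 0.0313, adjusted p = 1.00, edgeR), where 3.75% of all genes had one. None had a p under 0.005, where 0.344% of all genes did.

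**Figure D4:**
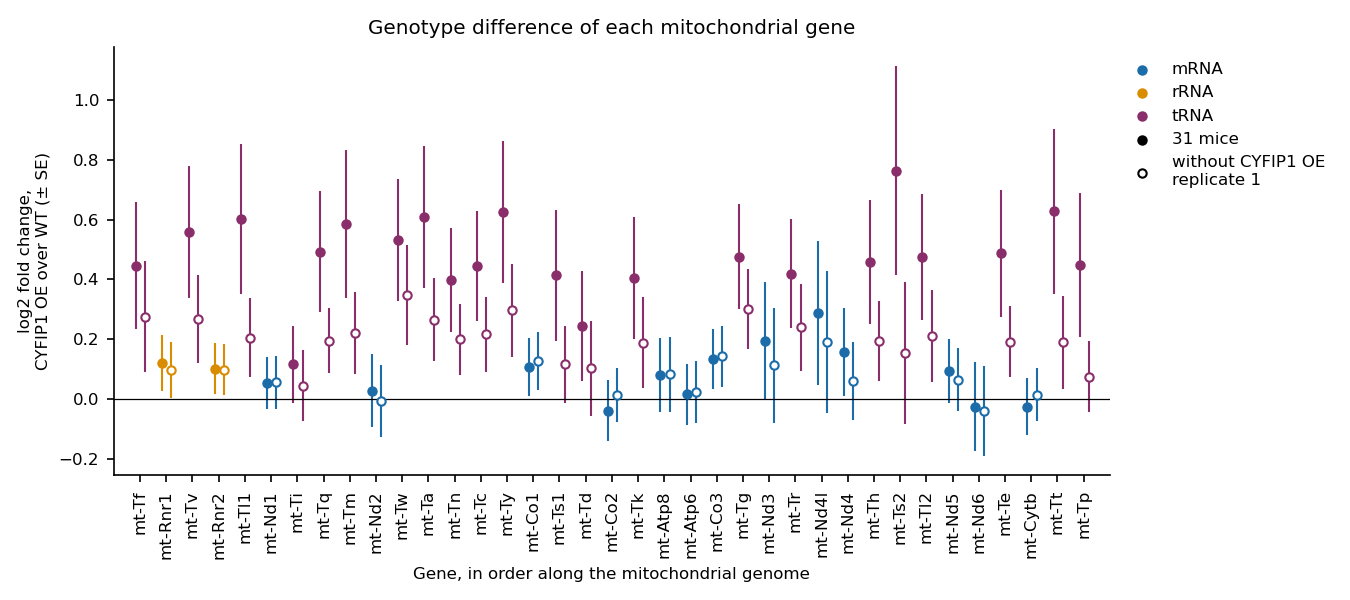
Log2 fold changes (CYFIP1 OE over WT, y axis) with their SE are drawn for each gene in genome order, filled for all 31 mice and open without CYFIP1 OE replicate 1. The tRNAs lie above 0 in the full set, with a median of 0.48, and move toward 0 without that mouse, while the mRNAs stay between -0.04 and 0.29 in the full set.

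The genotype difference was also set apart by line. In line 1 alone, 17 of the 37 genes were higher and 20 lower in CYFIP1 OE mice, with none at p under 0.05, where 5.53% of all genes were. In line 3 alone, 36 were higher and 19 passed an unadjusted 0.05, as did 6.42% of all genes. Without CYFIP1 OE replicate 1 there were 6, against 8.51% of all genes. mt-Tg had a mean of 63.5 ± 16.1 CPM (SD, n = 7) in CYFIP1 OE and 55.6 ± 10.5 CPM (SD, n = 8) in WT mice of line 1, and 90.03 ± 47.4 CPM (SD, n = 8) against 54.1 ± 25.8 CPM (SD, n = 8) in line 3. mt-Co1 had 1644 ± 359 CPM (SD, n = 7) in CYFIP1 OE and 1742 ± 184 CPM (SD, n = 8) in WT mice of line 1, and 1907 ± 279 CPM (SD, n = 8) against 1544 ± 361 CPM (SD, n = 8) in line 3. Within each line the ranges of both genes overlapped between the genotypes. The test of the difference itself, the interaction of genotype with line, called none of the members at an adjusted p under 0.05 (edgeR and DESeq2, percent called among all genes 0 and 0.0115). It gave 8 members with a p under 0.05, where 8.1% of all genes had one, and 13 of 35 with DESeq2, where 8.67% had one. Without CYFIP1 OE replicate 1 there were 3 members, against 10.4% of all genes. The smallest p was that of mt-Co1, with a difference of log2 fold changes of 0.42 ± 0.18 (SE, p = 0.0276, adjusted p = 0.57, edgeR) between line 3 and line 1. With the nuclear copies added, it was 0.12 ± 0.18 (SE, p = 0.506, edgeR). The sign turned for most members when 5 surrogate variables were added, from 36 of 37 positive to 30 of 37 negative. These variables were estimated with sex, line and genotype in the model but without the interaction. They can hold part of the interaction, so this fit cannot decide its sign. In line 1 the genotype also runs along the name groups, since 7 of its 8 WT mice share the title prefix X426.B, which holds no CYFIP1 OE mouse, and only X429.A, with 1 mouse of each genotype, holds both there. For the other mice of line 1, genotype and prefix cannot be told apart.

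Between the lines themselves the shares overlapped. Line 3 mice had 7.77% ± 0.871 (SD, n = 16) and line 1 mice 8.17% ± 1.26 (SD, n = 15) of their counts on the 37 genes, a difference of -0.404 points or -0.376 of the pooled SD, and all ranges overlapped. The mRNAs took 64.7% of the mitochondrial counts in line 3 (n = 16) and 67.6% in line 1 (n = 15), a difference of -0.951 of the pooled SD. The rRNAs took 32.7% and 30.3%, a difference of 0.885 of the pooled SD. These means include CYFIP1 OE replicate 1, a mouse of line 3 with 10.01% of its mitochondrial counts on tRNAs. No member was called by line at an adjusted p under 0.05, and none had a p under 0.05 with edgeR or DESeq2. Among all genes, none had an adjusted p under 0.05 in either tool, and 3.31% (edgeR) and 3.82% (DESeq2) had a p under 0.05. The classes leaned in different directions: 11 of 13 mRNAs were lower in line 3, with a median log2 fold change of -0.09, and 20 of 22 tRNAs were higher, with a median of 0.19. mt-Nd6, the mRNA on the minus strand, had the most negative value, -0.27 ± 0.15 (SE, p = 0.0768, edgeR). Without CYFIP1 OE replicate 1, only 12 of the 37 genes were higher in line 3, and the median over the members went from 0.11 to -0.05.

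The comparison of the sexes changed with CYFIP1 OE replicate 1. No member was called by sex at an adjusted p under 0.05 in either tool, where 0.0631% (edgeR) and 0.0689% (DESeq2) of all genes were. In all 31 mice, 26 of 37 genes were lower in males, and the values of mt-Cytb, mt-Co3 and mt-Atp8 passed an unadjusted limit of 0.05. Of all genes 4.62% passed it, and 1.6% as lower in males. DESeq2 gave 5 members and 5.23% of all genes. mt-Cytb, at a mean of 8773 CPM in females and 7603 CPM in males, had a log2 fold change of -0.21 ± 0.10 (SE, p = 0.0386, adjusted p = 0.97, edgeR). Without CYFIP1 OE replicate 1, which is a male, all 37 genes were lower in males, 17 passed an unadjusted 0.05, as did 4.59% of all genes, and the median log2 fold change went from -0.13 to -0.26. The smallest p was then that of mt-Tt, the tRNA for threonine, at -0.57 ± 0.16 (SE, p = 0.000865, adjusted p = 0.728, edgeR). The 37 genes are not separate observations, since they vary together, and the share of all genes lower in males at any p is not given here. With the name group as a block, none of the members had a p under 0.05 in the full set of mice, where 2.74% of all genes did. Without CYFIP1 OE replicate 1, 7 had one. The share of all genes in that fit is not given here, so the 7 cannot be set against it.

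The mice fell into 10 name groups, taken as the title up to its last number, and the labels do not say whether such a group is a litter. Only 5 of the 10 held both genotypes, with 18 mice. Among groups of at least 3 mice, the mean share of the 37 genes was lowest in X424.C, at 7.14% ± 0.870 (SD, n = 4), and highest in X426.B, at 8.34% ± 1.22 (SD, n = 7), and their ranges overlapped. The single mouse of X433B.D, CYFIP1 OE replicate 9, had 10.1% and the highest level of 7 of the 13 mRNAs. Beyond line, sex and genotype, no member differed between name groups at an adjusted p under 0.05 in edgeR or DESeq2, as did 0.0115% and 0.901% of all genes. At p under 0.05 there was 1 member, mt-Tk (p = 0.0470, edgeR), where 6.79% of all genes passed, and DESeq2 gave 5 members, where 10.5% passed. Without CYFIP1 OE replicate 1 edgeR gave 0 members.

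The mRNAs varied together over the mice. After sex, line and genotype were removed, Pearson's r of log2 CPM was above 0 for all 78 pairs of the 13 mRNAs, with a median of 0.698. Of the 78 pairs, 72 had an adjusted permutation p under 0.05, and 76 had one for Spearman's rho. The closest pair was mt-Nd1 with mt-Atp6, at r = 0.961 and rho = 0.935 (permutation p = 1e-05 each, the smallest that 100000 resamples can give, adjusted p = 2.17e-05 and 2.23e-05, n = 31). r was 0.945 without the 2 mice farthest from the median of mt-Nd1, and r was 0.970 in WT, 0.952 in CYFIP1 OE, 0.972 in line 1 and 0.945 in line 3. mt-Co2 and mt-Cytb had r = 0.958 and rho = 0.945 (adjusted permutation p = 2.17e-05 for r), and the overlapping mt-Atp8 and mt-Atp6 had r = 0.923 and rho = 0.901 (adjusted permutation p = 2.17e-05 for r). Mice of the same name group and the shared library total make these points dependent.

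mt-Nd6 followed the other mRNAs least, with a median r of 0.448 with the other 12 mRNAs in all mice and 0.461 without CYFIP1 OE replicate 1. mt-Co2 had rank 12 of 13, with a median r of 0.496, but rank 8, with 0.740, without that mouse. The r of mt-Nd6 with mt-Co3 was 0.0717 (rho = 0.0581, permutation p = 0.705 and 0.758, adjusted over 78 pairs 0.705 and 0.758). mt-Co2 and mt-Nd4 had r = 0.227 (permutation p = 0.220, adjusted p = 0.226) but rho = 0.435 (adjusted permutation p = 0.0166). Without the 2 mice farthest in mt-Co2, r was 0.602. In WT mice it was 0.780 and in CYFIP1 OE mice -0.186, and CYFIP1 OE replicate 1, the lowest mouse in mt-Co2 and the highest in mt-Nd4, is among the latter. The 2 rRNAs had r = 0.908 with each other. The median r between tRNAs was 0.828 in all mice and 0.689 without CYFIP1 OE replicate 1, and between mRNAs and tRNAs it was 0.428 and 0.558.

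**Figure D5:**
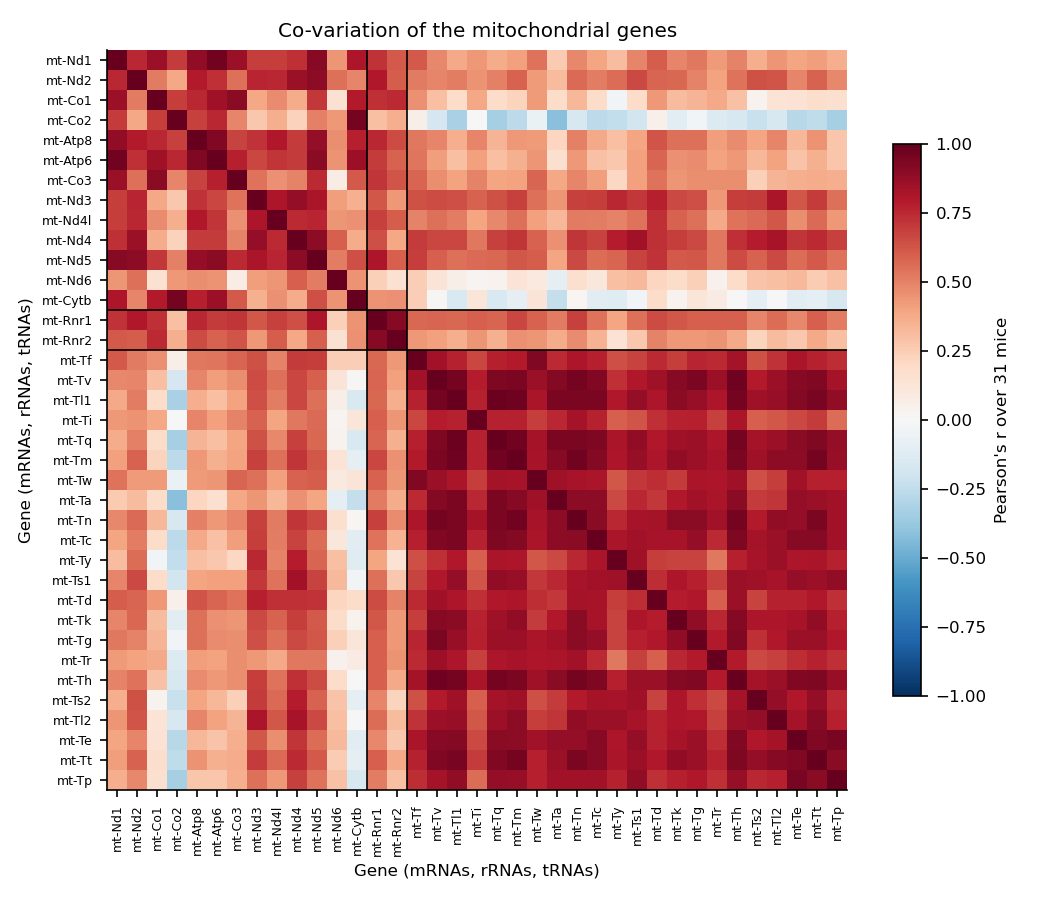
The matrix gives Pearson's r over the 31 mice (colour scale from -1 to 1) for each pair of the 37 genes, after sex, line and genotype were removed, with lines between the mRNAs, rRNAs and tRNAs. The mRNA block has a median r of 0.698 and the tRNA block of 0.828. mt-Co2 has r below 0 with most tRNAs, from -0.420 (mt-Ta) to 0.0602 (mt-Tf). For mt-Cytb r lies on both sides of 0, from -0.239 (mt-Ta) to 0.246 (mt-Tf). The matrix includes CYFIP1 OE replicate 1, the highest mouse in all 22 tRNAs and the lowest in mt-Co2 and mt-Cytb. Without that mouse the median r between mRNAs and tRNAs goes from 0.428 to 0.558.

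The nuclear genes that transcribe, process and maintain mitochondrial DNA and RNA showed no call by genotype or line. In the genotype comparison, 3 of 9 measured genes of mitochondrial transcription, 9 of 22 of RNA processing and stability, 5 of 12 of mitochondrial DNA maintenance, 3 of 6 of mitochondrial biogenesis and 13 of 25 nuclear subunits of the respiratory chain were higher in CYFIP1 OE mice. None of the genes on these lists had a p under 0.005 by genotype or by line. The list medians lay between -0.06 and 0.01 by genotype, beside -0.01 over all genes. Tefm, the elongation factor of the mitochondrial polymerase, had the smallest p of these lists by genotype, with 1.86 CPM in WT and 2.82 CPM in CYFIP1 OE mice and a log2 fold change of 0.59 ± 0.23 (SE, p = 0.0153, adjusted p = 0.999, edgeR). Tfb1m, also of the transcription list, went the other way, with 2.90 CPM in WT and 1.70 CPM in CYFIP1 OE mice. Its log2 fold change was -0.81 ± 0.36 (SE, p = 0.0297, adjusted p = 0.999, edgeR). Pde12, of the RNA processing list, had 0.27 ± 0.12 (SE, p = 0.0343, adjusted p = 0.999, edgeR). These genes were named after their values were seen. Among the markers of other cell types, the 3 measured choroid plexus genes had a median log2 fold change of -1.04 by genotype and 1.34 by line, and all 7 oligodendrocyte genes were lower in CYFIP1 OE mice, with a median of -0.24. No gene of either list was called, and the summed choroid plexus markers ranged from 16.4 to 8314 CPM in WT and from 28.9 to 4692 CPM in CYFIP1 OE mice. Of the marker genes of all lists, the microglia gene Tmem119 had the smallest p by genotype, at 0.48 ± 0.17 (SE, p = 0.00727, adjusted p = 0.999, edgeR). The endothelial gene Slco1c1 was lower in CYFIP1 OE mice, at -0.33 ± 0.14 (SE, p = 0.0264, adjusted p = 0.999, edgeR). Both were named after their values were seen, and the directions of the other genes of their lists are not given here. The part of these markers in the values of the mitochondrial genes was not tested.

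Across the mice, the mitochondrial mRNAs tended to be higher where several lists were higher, among them the striatal and the microglia markers. They tended to be lower where choroid plexus markers were higher. The strength differed by gene, with r from 0.0398 to 0.790 for the striatal markers. The 13 mRNAs and 2 rRNAs were set against the summed log2 CPM of 14 gene lists, 210 relations in all, with sex, line and genotype removed. For the striatal projection neuron markers, r was above 0 for 13 of 13 mRNAs, with a median of 0.548, and 8 had an adjusted permutation p under 0.05. The nuclear subunits of the respiratory chain had a median r of 0.479 with 7 such mRNAs, the RNA processing genes 0.463 with 8, and the microglia markers 0.513 with 9. For the choroid plexus markers, r was below 0 for all 13 mRNAs, with a median of -0.461 and 8 at an adjusted permutation p under 0.05. For the BLA markers the median r was -0.359, with 3 mRNAs below 0 at that limit, and for the neuron markers it was -0.289, with 2. Of the other lists, the genes of mitochondrial transcription had a median r of 0.288 with 4 such mRNAs, those of biogenesis 0.281 with 3, the oligodendrocyte markers 0.325 with 1 and the astrocyte markers 0.0706 with 1, while the maintenance genes and the blood and endothelial markers had none. mt-Cytb had r = 0.762 and rho = 0.775 with the striatal markers (adjusted permutation p = 0.00084 and 0.0003, n = 31). Without the 2 mice farthest in those markers r was 0.680, and it was 0.599 in WT, 0.891 in CYFIP1 OE, 0.709 in line 1 and 0.816 in line 3. mt-Nd4, in contrast, had r = 0.122 and rho = 0.225 with them (adjusted permutation p = 0.700 and 0.359), and r = 0.476 without CYFIP1 OE replicate 1. List sums and members share the library total, and mice of 1 name group are not independent. The share of all nuclear genes that pass the same limit against these lists is not given here. The relations are therefore not shown to be particular to the mitochondrial mRNAs.

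Of 8406 nuclear genes with a mean of at least 10 CPM, those most like the summed 13 mRNAs over the 31 mice, by Pearson's r after the same terms were removed, were Chchd10 (r = 0.854), Trnp1 (0.845), Kcnk2 (0.831), Actn2 (0.826) and Hpca (0.822). Chchd10 encodes a protein of the mitochondrial intermembrane space and Hpca the neuronal calcium sensor hippocalcin. The least like were Tmem145 (r = -0.832), Kcnd3 (-0.804), Pcdh8 (-0.798), Slit2 (-0.796) and Prr13 (-0.775). Kcnd3 is a potassium channel of neurons and Slit2 an axon guidance ligand. These values describe an order among the 8406 genes and were not tested.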

How the data were processed

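Both BLA of 31 mice were sequenced with QuantSeq 3′ libraries, and 1 library was made per mouse. Per the labels and the study's methods, the authors aligned reads with STAR to GRCm38 and estimated gene counts with Salmon, and versions are not given in the sources used here. The deposited values are expected counts, which were rounded to whole numbers. Genes with at least 10 reads in 20% of mice were kept. edgeR 4.0.16 (TMM, quasi-likelihood test, R 4.3.3) was fitted over all kept genes with sex, line and genotype, and p-values were adjusted by Benjamini-Hochberg over all of them. DESeq2 1.42.0, 5 surrogate variables (sva 3.50.0), other normalizations and filters, and leaving out each mouse were tried as alternatives. Correlations were taken on log2 CPM with those terms removed, with 100000 permutations. Mitochondrial transcripts were matched to other transcripts (at least 100 bases, 95% identity) to find nuclear copies. On simulated data, 90.5% of 200 genes changed by 1 on the log2 scale among 16946 genes were recovered for genotype. The simulated counts held no outlier mouse and no dependence between mice or genes. This rate need not hold for the members, whose changes by genotype were smaller. Members and gene lists were chosen with earlier results of these data known. All members are named, with the 5 nuclear copies of most counts, list genes with a p under 0.005 by genotype or line, and 5 genes at each end of the likeness order. Some list genes with a p under 0.05 by genotype are named as well. Copies were sought in transcripts rather than across gene spans. Nothing in the labels says that mice were sampled independently of litter, so p-values measure the spread between these mice.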

Additional observations from a re-analysis of the deposited data

Results flagged for a closer look

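The 37 genes and 5 shares were examined within genotype and line, 168 groups in all, for a mouse far from the rest, and 51 values stood apart by Dixon's criterion, which chance gives in about 1 of 20 groups. CYFIP1 OE replicate 1 had 0.649% of all counts on tRNAs (other 7 mice of its group 0.136% to 0.232%) and 10.01% of mitochondrial counts on tRNAs, with mt-Nd4 at 11034 CPM (others 4867 to 6948) and mt-Co2 at 3112 CPM (others 5989 to 7981).

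WT replicate 14 had 3.08% of all counts on rRNAs (others 2.21% to 2.61%), mt-Rnr1 at 8535 CPM, mt-Rnr2 at 29352 CPM, mt-Co1 at 2367 CPM and mt-Co3 at 18122 CPM. WT replicate 4 had 7.96% of all counts on mRNAs (others 4.91% to 6.08%), mt-Co2 at 9747 CPM, mt-Atp6 at 10073 CPM and mt-Cytb at 11462 CPM. CYFIP1 OE replicate 9 had mt-Atp8 at 273 CPM and mt-Atp6 at 10441 CPM, CYFIP1 OE replicate 10 had mt-Co3 at 18125 CPM, and WT replicate 11 had mt-Rnr1 at 7015 CPM.

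Of the tRNA genes, the values of CYFIP1 OE replicate 1 that stood apart were mt-Tv at 281 CPM, mt-Tl1 at 457 CPM, mt-Tq at 501 CPM, mt-Tm at 631 CPM, mt-Ta at 2024 CPM, mt-Tn at 295 CPM, mt-Tc at 211 CPM, mt-Ty at 73.5 CPM, mt-Ts1 at 2309 CPM, mt-Td at 24.4 CPM, mt-Tk at 62.9 CPM, mt-Tg at 198 CPM, mt-Tr at 37.4 CPM, mt-Th at 128 CPM, mt-Ts2 at 37.6 CPM, mt-Tl2 at 69.9 CPM, mt-Te at 635 CPM, mt-Tt at 147 CPM and mt-Tp at 230 CPM. Those of WT replicate 14 were mt-Tv at 109 CPM, mt-Tl1 at 119 CPM, mt-Tq at 140 CPM, mt-Tm at 188 CPM, mt-Tw at 126 CPM, mt-Ta at 596 CPM, mt-Tn at 147 CPM, mt-Tc at 88.8 CPM, mt-Tg at 111 CPM, mt-Tr at 20.1 CPM, mt-Th at 45.9 CPM, mt-Te at 204 CPM and mt-Tt at 44.6 CPM. WT replicate 7 had mt-Ta at 414 CPM (others 209 to 301), and CYFIP1 OE replicate 4 had mt-Tp at 65.3 CPM (others 30.4 to 43.1). The values of 1 mouse are not independent of each other, so the 51 values come from few mice.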

How the results depend on the processing

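The count of members at an adjusted p under 0.05 was 0 under every alternative run, for genotype, line, sex, genotype within line and name group. The counts at an unadjusted p under 0.05 moved. For genotype, 17 became 2 without CYFIP1 OE replicate 1, 2 with 5 surrogate variables, 0 in line 1 alone and 6 in line 3 alone without that mouse, and 1 with name group as a block without that mouse (19 with it). Leaving out 1 mouse at a time gave 2 to 20, with 11 without WT replicate 12 or 13 and 20 without WT replicate 14. Without WT replicate 14, 4 members also had a p under 0.005 (edgeR). For line, leaving out 1 mouse gave 0 to 2. For sex, 3 became 17 without CYFIP1 OE replicate 1, 7 with age added or without the mice aged 77 days, 5 with DESeq2 or without the 3 highest nuclear entries, 0 with name group as a block and 7 with the block and without CYFIP1 OE replicate 1, and leaving out 1 mouse gave 0 to 17. For genotype within line, 8 became 13 with DESeq2, 3 without CYFIP1 OE replicate 1 or with 5 surrogate variables, 2 with age added and 0 without the mice aged 77 days. For name group, 1 became 5 with DESeq2, 14 with no filter on low counts, and 0 with DESeq2 size factors, with nuclear genes only for normalization or without CYFIP1 OE replicate 1. The share over all genes is not given here for the fits with surrogate variables, with age or without the mice aged 77 days. Nor is it given with no filter, without the 3 highest nuclear entries, or with each of the other mice left out. Counts from these fits cannot be set against it. With 5 surrogate variables, more members were lower by genotype than in the main fit. Of those that turned, mt-Nd4 and mt-Ts1 had values larger than their SE in both fits, with log2 fold changes of -0.11 and -0.077 after the turn. The fits without CYFIP1 OE replicate 1 in line 3 or under the block were chosen after seeing the data. The cause was not tested. Replicate numbers follow accession order and pair no mice, so mice were matched only through the name group block. The split of reads between members and nuclear copies limits mt-Co1, mt-Nd2, mt-Nd3 and mt-Nd4l most.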
